A study of Homo sapiens with 4 samples.

Results

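The radiation response of tumors in running hosts was read from 1 pair of RNA libraries, the combination (exercise and radiation) set against exercise alone. These are 2 of the 4 libraries of the study, with 1 library per group, and they were taken by their group labels. The read count files hold 38137 genes, and the comparison used the 19393 whose count averaged 20 or more across the 4 libraries. Each comparison is a ratio of 2 libraries, with no replicate and no p-value, so a difference between groups cannot be separated from a difference between the tumors that were sequenced.

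The tumors were flank xenografts of A549, a human lung adenocarcinoma cell line, in male BALB/c athymic nude mice that were 6 weeks old at the start. The combination mice ran on a treadmill and received X-rays after running on the same day, the exercise mice only ran, the radiation mice were only irradiated, and the control mice had neither treatment. Running was at 8.0 m/min for 30 min and irradiation was 2 Gy of 6 MV X-rays, each in 3 sessions per week over 2 weeks, in groups of 5 mice. Whether a library was made from 1 tumor or from a pool is not stated in the sources used here. The host lacks a thymus and mature T cells, and all 4 groups share this host and this single cell line.

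The biology that radiation is known to engage has 3 main arms in tumor cells. DNA breaks stabilise p53, which switches on CDKN1A and other genes of arrest, repair and cell death, together with its own inhibitor MDM2. The CDKN1A protein blocks the kinases of the cell cycle, after which the DREAM repressor complex silences replication and mitosis genes, the mitosis genes largely through a promoter element called CHR (cell cycle genes homology region). DNA or RNA that escapes the nucleus can start an interferon response, whose target genes carry the ISRE (interferon-stimulated response element) and whose products include the antigen-presenting MHC class I molecules.

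Reads assigned to genes totalled 33432637 in the combination and 34304760 in exercise, and 35408705 in radiation and 34602535 in control. Mitochondrially encoded genes took 6.36% of reads in the combination and 6.62% in exercise, and 6.23% in radiation and 5.42% in control. The 9 markers of A549 (keratins 7, 8, 18 and 19, EPCAM, ALDH1A1, AKR1B10, AKR1C1 and NQO1) were high in all 4 libraries, with EPCAM the lowest at 885 reads in the combination and 1107 in exercise, and 772 in radiation and 986 in control. CDKN2A, which A549 has lost, had at most 1 read. The median log2 ratio of these markers, combination over exercise, was 0.06. No source used here gives the strand setting of the counting or the treatment of mouse reads, so a gene cannot be told apart from one that overlaps it on the other strand, nor a human read from a mouse read that matches the human gene. In a bulk library, fewer cells of a type and less RNA per cell cannot be told apart either.

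Levels are given as CPM (reads of a gene scaled to the size of its library after TMM normalization), and the ratio of the combination over exercise is given as a fold with its exact 95% interval, or as a log2 ratio with 0.5 counts added. The intervals cover counting error only. Of the 19393 genes, 566 (2.92%) were at least 2-fold higher in the combination than in exercise and 593 (3.06%) were at least 2-fold lower, and 47.8% had a log2 ratio above 0. The median log2 ratio of all genes was -0.02. Computed from the deposited FPKM, with 0.1 added, the counts were 228 higher and 194 lower. At 4-fold the split was uneven, with 108 genes higher and 30 lower. Of the genes at 2-fold, 410 higher and 383 lower ones were protein coding. Where the count averaged 500 or more (11006 genes), 151 were higher and 81 lower, while the 261 higher and 301 lower genes whose count averaged 20 to 100 rest on few reads. Just outside the threshold, 80 genes were 1.9-fold to 2-fold higher and 118 lower by the same factor. Just inside it, 75 were 2-fold to 2.1-fold higher and 89 lower.

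**Figure D1:**
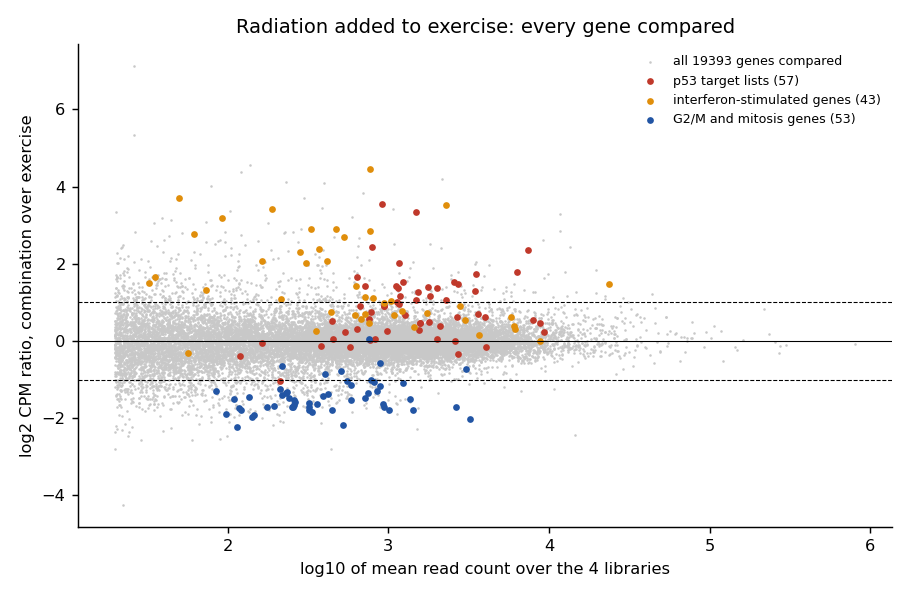
Log2 CPM ratio of the combination over exercise (y) against the log10 of the mean read count over the 4 libraries (x), 1 point per gene for the 19393 genes compared, with dashed lines at 2-fold. The 57 genes of the p53 lists and the 43 interferon-stimulated genes lie mostly above 0, and the 53 G2/M and mitosis genes lie mostly below the lower dashed line.

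Target genes of p53 were mostly higher in the combination. The 4 p53 lists held 57 compared genes, of which 23 were at least 2-fold higher in the combination, 1 was lower, and 50 had a log2 ratio above 0. Their median log2 ratio was 0.69, beside -0.02 for all genes. CDKN1A, the inhibitor of cyclin-dependent kinases that carries out p53 arrest, had 408 CPM in the combination and 79.6 in exercise, and 327 in radiation and 60.6 in control. The combination and the radiation library stood together at the high level, and exercise and control together at the low one. The ratio of the combination over exercise was 5.12 (95% interval 4.91 to 5.33).

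The feedback and stress sensor genes were higher as a block, with 8 of 11 at least 2-fold higher and a median log2 ratio of 1.36. MDM2, the ubiquitin ligase that degrades p53, had 290.3 CPM in the combination and 83.7 in exercise, and 272 in radiation and 91.04 in control, a ratio of 3.47 (3.33 to 3.62). ZMAT3, a p53-induced RNA-binding protein, had 55.7 CPM in the combination and 13.6 in exercise, and 52.5 in radiation and 14.5 in control, a ratio of 4.09 (3.696 to 4.54). The sestrin genes SESN1 and SESN2, which restrain mTORC1 under stress, had log2 ratios of 1.66 and 1.43, and the others at 2-fold were RPS27L (1.53), PHLDA3 (1.36), an inhibitor of AKT, TP53INP1 (1.15) and CCNG1 (1.05). MDM4, an inhibitor of p53, had a log2 ratio of 0.01 and was not at 2-fold.

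Arrest genes had a median log2 ratio of 0.91, and 4 of the 9 stood 2-fold or more above exercise, with 1 below it by that factor. Besides CDKN1A, the higher ones were GDF15, a secreted stress cytokine, PLK2, a kinase of centriole duplication, and BTG2, an antiproliferative cofactor. GDF15 had 178 CPM in the combination and 53.5 in exercise, and 139 in radiation and 40.3 in control, a ratio of 3.32 (3.15 to 3.4998). For PLK2 the log2 ratio was 1.39, and for BTG2 it was 1.37. E2F7, a repressor of E2F targets that p53 can induce and that cycling cells also express, was the lower one, with 145 reads in the combination and 312 in exercise, and 203 in radiation and 188 in control. Its level was highest in exercise and lowest in the combination, and its ratio was 0.4903 (0.3998 to 0.599).

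Of the p53 targets that act in cell death, the receptor genes EDA2R and FAS had the highest ratios. Of 18 compared, 7 were 2-fold or more above exercise and none was below it by that factor, around a median log2 ratio of 0.51. EDA2R, a TNF receptor family member, had 77.7 CPM in the combination and 7.67 in exercise, and 80.8 in radiation and 8.85 in control, a ratio of 10.1 (8.92 to 11.5). FAS, the death receptor, had 42.7 CPM in the combination and 7.84 in exercise, and 35.7 in radiation and 7.42 in control, a ratio of 5.45 (4.78 to 6.23). Both genes were near their sedentary control level in exercise and at a level several times higher in each irradiated library. BAX, the pore-forming effector of mitochondrial death, had a log2 ratio of 1.48, and the other genes at 2-fold were FDXR (1.42), the nuclease gene AEN (1.3), CYFIP2 (1.17) and BBC3 (1.02), which encodes the BH3-only protein PUMA. At the other end, the decoy receptor gene TNFRSF6B had a log2 ratio of -0.38 and TP53I3 of -0.15, both under 2-fold.

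In the repair and metabolism list (median log2 ratio 0.62), the 2-fold threshold was passed upward by 4 of 19 genes and downward by none. SPATA18, a regulator of mitochondrial quality control also known as Mieap, had 44.9 CPM in the combination and 3.85 in exercise, and 54.1 in radiation and 4.59 in control, a ratio of 11.7 (9.77 to 14.04). DDB2, which recognises ultraviolet lesions for nucleotide excision repair, had 119.5 CPM in the combination and 41.3 in exercise, and 107 in radiation and 32.2 in control, a ratio of 2.89 (2.72 to 3.07). TIGAR, a fructose bisphosphatase, had a log2 ratio of 1.27 and RRM2B, the p53-inducible subunit of ribonucleotide reductase, of 1.06. The lowest member was SCO2, a copper chaperone of cytochrome oxidase, at -0.15. PTCHD4, a p53 target outside the lists that was among the 10 highest genes of the comparison, had 628 reads in the combination and 38 in exercise, and 887 in radiation and 47 in control, a ratio of 17.4 (12.6 to 24.9).

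A match to the full p53 response element, searched on both strands in the 250 bases before the start of each gene, was found in 9 of 35116 RefSeq promoters and in none of the p53 list genes with a promoter in the table. Many known p53 elements lie in introns or farther upstream, which this window does not cover. The search allowed no mismatch, so an element with a mismatch was not counted either.

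Genes of mitosis were lower in the combination almost throughout. Of the 53 G2/M and mitosis genes, 47 were at least 2-fold lower and none was 2-fold higher, around a median log2 ratio of -1.52. SPC25, a kinetochore subunit, alone lay above 0 (0.04), and CCNB2 (cyclin B2) was the next highest at -0.57. MKI67, the proliferation marker Ki-67, had 42.7 CPM in the combination and 174 in exercise, and 48.998 in radiation and 104 in control. The order of its libraries was exercise, control, radiation and combination, with exercise far above the irradiated pair, and the ratio was 0.246 (0.232 to 0.261). CDC20, the activator of the anaphase-promoting complex, had 45 reads in the combination and 225 in exercise, and 55 in radiation and 132 in control, a ratio of 0.211 (0.1497 to 0.292), which was the lowest in the list. KIF18B, a mitotic kinesin, had 6.32 CPM in the combination and 28.4 in exercise, and 7.56 in radiation and 17.7 in control, a ratio of 0.223 (0.191 to 0.259).

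The CHR element, whose letters are TTTGAA, is shown for 5 of these genes because DREAM is known to silence mitosis genes largely through it. Searched on both strands, it was present in the 250 bases before the start of 26 of 45 G2/M genes with a promoter in the RefSeq table (57.8%), and of 1 of 37 G1/S and replication genes. The share was 13.1% of the 14072 compared genes with a promoter, and 13.3% of all 35116 promoters taken singly. For each of the 5 genes, the last 120 bases before the first start listed in the RefSeq table are printed 5′ to 3′ on the gene's strand. Matches are in capitals (TTCAAA is the same element on the other strand). The 5 genes had the lowest ratios among list members averaging 100 reads or more with a match in those 120 bases. They are CDC20 (chr1:43358861-43358980, plus strand), MKI67 (chr10:128126424-128126543, minus strand), DEPDC1 (chr1:68497083-68497202, minus strand), KIF15 (chr3:44761674-44761793, plus strand) and HJURP (chr2:233854536-233854655, minus strand) in GRCh38.p14.
CDC20: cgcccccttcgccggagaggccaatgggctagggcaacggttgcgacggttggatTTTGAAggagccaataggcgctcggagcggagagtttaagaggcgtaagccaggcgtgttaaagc
MKI67: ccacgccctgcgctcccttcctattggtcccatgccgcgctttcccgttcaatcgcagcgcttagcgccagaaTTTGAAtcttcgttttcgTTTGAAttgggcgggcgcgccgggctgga
DEPDC1: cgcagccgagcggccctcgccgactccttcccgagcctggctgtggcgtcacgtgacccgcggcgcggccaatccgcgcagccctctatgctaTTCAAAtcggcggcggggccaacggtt
KIF15: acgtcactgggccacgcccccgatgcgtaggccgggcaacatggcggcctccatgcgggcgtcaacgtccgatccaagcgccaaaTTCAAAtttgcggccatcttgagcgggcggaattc
HJURP: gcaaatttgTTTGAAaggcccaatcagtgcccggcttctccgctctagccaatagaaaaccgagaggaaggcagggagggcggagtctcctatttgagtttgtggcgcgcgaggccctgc
In the MKI67 promoter 2 matches stand close together, and in the others there is 1. The CCAAT box, read as CCAAT on either strand, was found for 36 of the 45 G2/M genes. It was found for 39.6% of the 14072 compared genes with a promoter, and in 32.01% of all promoters taken singly. A match did not sort the G2/M genes by their ratio, since the median log2 ratio was -1.54 for those with a CHR in the window and -1.69 for those without.

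Among the kinases and their partners, AURKB had a log2 ratio of -1.78, BUB1B of -1.7, TTK of -1.45, PLK1 of -1.37 and CDK1 of -1.15. Among the centromere and kinetochore genes, NUF2 had -1.96, HJURP -1.79, CENPF -1.78, CENPA -1.7 and NDC80 -1.51. TOP2A, the topoisomerase that untangles sister chromatids, had 41.9 CPM in the combination and 136 in exercise, and 42.4 in radiation and 85.4 in control, a ratio of 0.307 (0.289 to 0.327). FOXM1 and MYBL2, transcription factors that activate this programme and are members of the list, had log2 ratios of -1.09 and -1.53.

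Replication genes were lower by less. Of 44 G1/S and replication genes, 13 stood at 2-fold or more below exercise and none above it, the median log2 ratio being -0.71. E2F2, an activator of S-phase genes, had 42 reads in the combination and 160 in exercise, and 55 in radiation and 96 in control, a ratio of 0.277 (0.192 to 0.391). CDC45, part of the replicative helicase, had 82 reads in the combination and 285 in exercise, and 103 in radiation and 207 in control, a ratio of 0.304 (0.234 to 0.389). E2F1 had 241 reads in the combination and 619 in exercise, and 235 in radiation and 306 in control, a ratio of 0.411 (0.352 to 0.477), and stood highest in exercise with the other 3 libraries much closer together. The licensing genes MCM10, ORC1, ORC6 and CDT1 had log2 ratios of -1.62, -1.48, -1.39 and -1.15, and RRM2, the S-phase subunit of ribonucleotide reductase, of -1.23. PCNA and TYMS, the 2 highest members, had 0.14 and 0.18. PCNA, the sliding clamp of replication, is also a known p53 target.

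The repair genes split by pathway. Homologous recombination and Fanconi genes, which are used in S and G2 phase, had 8 of 21 members at least 2-fold lower, none higher, and a median log2 ratio of -0.89. BRCA1 had 16.1 CPM in the combination and 34.3 in exercise, and 16.3 in radiation and 23.02 in control, a ratio of 0.4697 (0.423 to 0.521), and RAD51AP1 and BLM, the lowest members, had log2 ratios of -1.59 and -1.56. Damage signalling and end joining genes, which act throughout the cycle, had no member of 21 at 2-fold in either direction and a median of -0.08. Their extremes were H2AX (-0.73) and CHEK1 (-0.68) on the low side and RNF8 (0.05) and LIG4 (0.15) on the high side.

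Among the 15 genes of CDK inhibitors, the RB family and lamin B1, only LMNB1 was at 2-fold. LMNB1, a nuclear lamina gene whose loss is a marker of senescence, had 14.05 CPM in the combination and 36.6 in exercise, and 10.4 in radiation and 23.7 in control, a ratio of 0.384 (0.344 to 0.427). It was lower in both irradiated libraries than in both unirradiated ones. CDKN3, a phosphatase expressed in mitosis, was next lowest with a log2 ratio of -0.88. CDKN2A and CDKN2B, absent from A549, were at 0 or 1 read. TERT, the catalytic subunit of telomerase, was the lowest gene of the whole comparison by log2 ratio, with 2 reads in the combination and 49 in exercise, and 4 in radiation and 34 in control. Those few reads give a ratio of 0.0431 (0.00507 to 0.164), while DKC1, the pseudouridine synthase of the same enzyme, had a log2 ratio of -0.43 and none of the other 7 genes of the telomerase and shelterin list was at 2-fold.

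**Figure D2:**
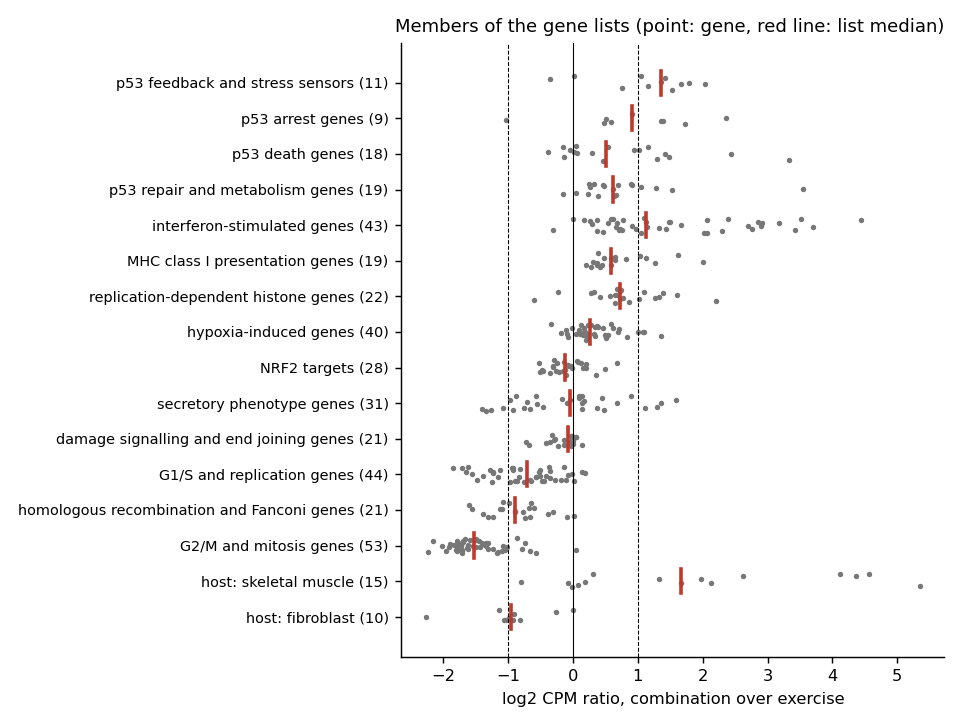
Log2 CPM ratio of the combination over exercise for each member (grey points, spread vertically within a list for legibility) of 16 gene lists, with the list median as a red line, the number of genes compared in brackets and dashed lines at 2-fold. The G2/M list lies almost wholly below the lower dashed line, the damage signalling list is centred near 0, and the interferon and muscle lists spread furthest to the right.

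Interferon-stimulated genes were higher in the combination, with 24 of 43 at least 2-fold higher, none 2-fold lower, and a median log2 ratio of 1.12. In 41 of the 43 genes the exercise library had the lowest of the 4 levels, and in 26 the combination had the highest. IFI6, a mitochondrial and endoplasmic reticulum protein of the antiviral response, had 132 CPM in the combination and 11.5 in exercise, and 79.02 in radiation and 47.8 in control, a ratio of 11.5 (10.4 to 12.8). The exercise library was alone at its low level, and the combination exceeded radiation as well. IFIT1, which binds viral RNA, had 35.3 CPM in the combination and 4.86 in exercise, and 30.3 in radiation and 19.3 in control, a ratio of 7.27 (6.18 to 8.59). ISG15, a ubiquitin-like modifier, had 17.4 CPM in the combination and 3.299 in exercise, and 13.4 in radiation and 8.93 in control, a ratio of 5.28 (4.31 to 6.52). For both, the 3 libraries other than exercise lay within a factor of 2 of each other.

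The promoters of 5 of these genes are shown for their ISRE, read as GAAANNGAAA on either strand. It was found in the 250 bases before the start of 22 of 34 interferon-stimulated genes with a promoter in the RefSeq table (64.7%), of 8 of 15 MHC class I presentation genes, and of no G2/M or p53 list gene. The share was 3.46% of the 14072 compared genes with a promoter, and 3.02% of all promoters taken singly. The genes were chosen as those with the highest ratios among list members that averaged 100 reads or more and have a match in the last 120 bases. They are IFI6 (chr1:27672193-27672312, minus strand), IFITM1 (chr11:313920-314039, plus strand), IFI27 (chr14:94110616-94110735, plus strand), IFIT1 (chr10:89392503-89392622, plus strand) and ISG15 (chr1:1013377-1013496, plus strand) in GRCh38.p14, printed as above with the matches in capitals (TTTCNNTTTC is the other strand). For IFI27 the start is one of those in the RefSeq table, which lies inside the span that the gene annotation gives (94105894 to 94116690). A gene with more than one start in the table was counted where any of them held a match.
IFI6: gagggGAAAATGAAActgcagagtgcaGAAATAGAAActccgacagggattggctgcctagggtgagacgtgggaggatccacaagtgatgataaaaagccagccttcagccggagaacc
IFITM1: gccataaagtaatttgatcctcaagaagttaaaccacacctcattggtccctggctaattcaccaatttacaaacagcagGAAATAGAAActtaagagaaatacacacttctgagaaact
IFI27: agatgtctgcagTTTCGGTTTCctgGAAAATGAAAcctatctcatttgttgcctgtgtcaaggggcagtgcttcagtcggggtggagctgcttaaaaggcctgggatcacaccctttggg
IFIT1: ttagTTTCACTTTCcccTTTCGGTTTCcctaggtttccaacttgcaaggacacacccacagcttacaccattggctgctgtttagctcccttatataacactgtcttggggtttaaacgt
ISG15: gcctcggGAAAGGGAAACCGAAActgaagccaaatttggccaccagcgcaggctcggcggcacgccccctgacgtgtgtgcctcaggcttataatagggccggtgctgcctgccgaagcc
IFI6, IFI27, IFIT1 and ISG15 each hold 2 matches, and in ISG15 they overlap. The median log2 ratio was 1.46 for the interferon-stimulated genes with a match and 0.75 for those without. The CCAAT box split the same list more widely, with 2.4 for the 12 genes that have it and 0.84 for the others. In the MHC class I list the order was the other way, with 0.43 for genes with an ISRE and 0.59 for those without. Whether the element bears on the ratio was not tested. Over the whole comparison, 7.19% of the 487 compared genes with an ISRE in the window were at least 2-fold higher, against 2.44% of the 13585 without, the list genes included in both counts.

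TRIM22, an antiviral ubiquitin ligase gene that both interferon and p53 can induce, had the highest ratio in the list, with 43.9 CPM in the combination and 1.997 in exercise, and 40.5 in radiation and 4.26 in control. It was high in both irradiated libraries and low in the other two, and its ratio was 21.97 (17.3 to 28.4). BST2 (tetherin) had 80 reads in the combination and 6 in exercise, and 59 in radiation and 54 in control, and IFI44L had 90 reads in the combination and 10 in exercise, and 129 in radiation and 140 in control. Both were low in exercise only, and BST2 at 6 reads has a wide interval around its ratio of 14.1 (6.19 to 39.5). XAF1, OAS2, MX1 and IFI44 had log2 ratios of 3.42, 2.7, 2.3 and 2.03. LGALS3BP, the most abundant member, had 1061 CPM in the combination and 379 in exercise, and 818 in radiation and 522 in control, a ratio of 2.801 (2.74 to 2.86). Some members hardly differed, among them EPSTI1 (-0.31) and OAS1 (0.002), which is a sensor of double-stranded RNA in the same family as OAS2.

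The genes upstream of this response differed less. Of the 11 compared genes in the list of nucleic acid sensors and interferon genes, 1 was at 2-fold, on the higher side, and the median log2 ratio was 0.13. TLR3, an endosomal receptor for double-stranded RNA, had 301 reads in the combination and 117 in exercise, and 268 in radiation and 152 in control, a ratio of 2.71 (2.19 to 3.39). CGAS, the sensor of cytosolic DNA, was the lowest of the list at a log2 ratio of -0.39. IFNB1 had no read in any library, which allows a level of up to 3 reads (0.0916 CPM in the combination and 0.0868 in exercise). The lambda interferon genes IFNL1, IFNL2 and IFNL3 had 0 or 1 read in the combination and 0 in exercise, and 1 to 3 in radiation and 0 in control, too few to compare.

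All 19 MHC class I presentation genes had a log2 ratio above 0, 5 of them were at least 2-fold higher, and the median was 0.59. HLA-B, a classical class I heavy chain, had 175 CPM in the combination and 43.4 in exercise, and 129 in radiation and 57.7 in control, a ratio of 4.02 (3.797 to 4.26). B2M, the light chain of every class I molecule, had 644 CPM in the combination and 268 in exercise, and 524 in radiation and 293 in control, a ratio of 2.403 (2.34 to 2.46). HLA-C and HLA-F had log2 ratios of 1.62 and 1.03. The class I genes are close copies of each other, and reads may have been split between them. The lowest members were NLRC5, their transcriptional activator, at 0.2 and the peptidase gene ERAP2 at 0.29. In 18 of the 19 genes the exercise library was the lowest of the 4.

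Ligands seen by immune cells had a median log2 ratio of 0.06 over 18 genes, of which 3 passed the 2-fold threshold upward and 1 downward. VTCN1, the inhibitory ligand B7-H4, had 35.2 CPM in the combination and 8.28 in exercise, and 34.9 in radiation and 10.6 in control, a ratio of 4.26 (3.74 to 4.86). TNFSF9, the ligand of the costimulatory receptor 4-1BB, had 17.95 CPM in the combination and 5.296 in exercise, and 16.6 in radiation and 4.79 in control, a ratio of 3.39 (2.87 to 4.02). For both, the irradiated libraries were high and the unirradiated ones low. TNFSF10, which encodes TRAIL, had a log2 ratio of 1.05. MICB, a stress ligand of NK cells, was the lower one, with 28 reads in the combination and 77 in exercise, and 24 in radiation and 40 in control. The mice lack T cells but keep NK cells.

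The secretory phenotype genes, often raised in senescent cells, did not move together. Of 31 compared, 4 passed the 2-fold threshold upward and 4 downward, around a median log2 ratio of -0.05. The higher ones were TNFRSF11B (1.58), IGFBP6 (1.35), TIMP1 (1.29), an inhibitor of matrix metalloproteinases, and IGFBP3 (1.11). TIMP1 had 231 CPM in the combination and 94.1 in exercise, and 194 in radiation and 113 in control. The lower ones were the collagenase gene MMP1 (-1.4), INHBA (-1.34), IGFBP2 (-1.26) and the chemokine gene CCL20 (-1.08). IL6, the best known factor of the phenotype, had at most 2 reads in a library.

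**Figure D3:**
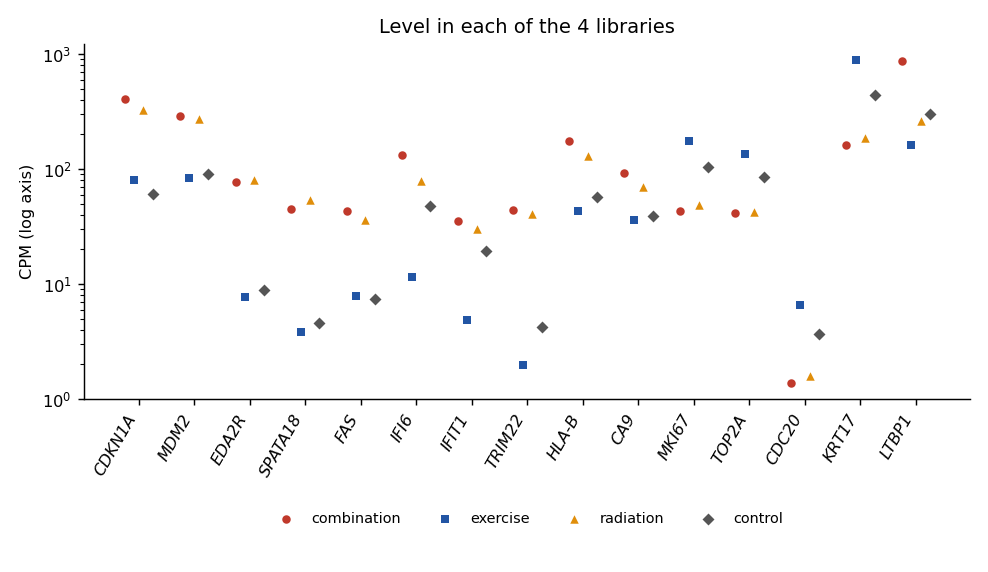
CPM (log axis) of 15 genes in the 4 libraries, in the order combination, exercise, radiation and control within each gene, 1 point per library. CDKN1A to FAS are high in both irradiated libraries, IFI6 and IFIT1 are lowest in exercise alone, MKI67, TOP2A, CDC20 and KRT17 are highest in exercise, and LTBP1 is highest in the combination.

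Hypoxia-induced genes, which answer to the HIF transcription factors at low oxygen, had a median log2 ratio of 0.26, and 34 of 40 were above 0. The 4 at 2-fold were CA9, EGLN3, STC2 and ADM, and none was 2-fold lower. CA9, the membrane carbonic anhydrase IX used as a hypoxia marker, had 92.6 CPM in the combination and 36.1 in exercise, and 69.8 in radiation and 38.8 in control, a ratio of 2.57 (2.403 to 2.74). EGLN3, a prolyl hydroxylase that marks HIF for degradation, had 221 CPM in the combination and 104 in exercise, and 191 in radiation and 98.9 in control, a ratio of 2.13 (2.05 to 2.22). ADM (adrenomedullin) and STC2 had log2 ratios of 1.001 and 1.08. The lowest members were PFKFB4 (-0.33) and PDK3 (-0.19). HIF1A had 197 CPM in the combination and 181 in exercise, and 218 in radiation and 154 in control, a log2 ratio of 0.12, and of the 8 oxygen sensing genes none was at 2-fold (median -0.04), though HIF activity is set mostly by protein stability, which RNA does not show.

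Genes of reactive oxygen handling were mostly flat. The 28 NRF2 targets had no member at 2-fold and a median log2 ratio of -0.12, and in A549 this programme is constantly active through loss of KEAP1 function. Of 34 genes for oxidases, antioxidant enzymes, glutathione S-transferases and mitochondrial pore proteins, 3 stood at 2-fold or more above exercise and 1 below it (median 0.09). DUOX2, a hydrogen peroxide-producing oxidase, had 182 reads in the combination and 36 in exercise, and 163 in radiation and 40 in control, a ratio of 5.33 (3.71 to 7.85). NOX4, another such oxidase, was the lower gene, with 21 reads in the combination and 74 in exercise, and 24 in radiation and 26 in control, and stood out in exercise only. GSTA1 and NOX1 had log2 ratios of 1.23 and 1.14. GSTO1, one of the genes the study singles out, had 25.9 CPM in the combination and 21.4 in exercise (log2 ratio 0.28), and 24.01 in radiation and 20.4 in control. GSTM5 and SLC25A31, which it also names, had 1 and 8 reads in the combination and 0 and 2 in exercise, too few to compare. The study's folds for these genes set the combination against radiation alone, which is not the comparison made here. For Mptp, its name for the mitochondrial pore, the study does report a higher level in exercise than in the combination. Mptp is not among the genes given here.

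Histone genes of the replication-dependent class, whose messages normally lack a polyA tail, were higher although replication genes were lower. Of 53 genes in the list 22 passed the minimum count, 7 of these stood at 2-fold or more above exercise and none below it by that factor, with 0.73 as the median log2 ratio. H1-2, a linker histone, had 37.3 CPM in the combination and 14.8 in exercise, and 27.9 in radiation and 16.1 in control, a ratio of 2.52 (2.27 to 2.801). H2BC4 had 13.01 CPM in the combination and 5.41 in exercise, and 9.63 in radiation and 4.59 in control, a ratio of 2.403 (2.02 to 2.87). H2BC6, the highest member, rests on 50 reads in the combination and 11 in exercise, and H2BC11, the lowest, had a log2 ratio of -0.6. Within each histone type these genes are similar copies, and only their polyadenylated messages enter polyA-selected libraries.

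Other stress programmes showed little. Heat shock genes (13 genes, median log2 ratio 0.01), ATF4 targets (17, -0.002) and cholesterol synthesis genes (20, -0.22) had no member at 2-fold. Of 26 immediate early genes, IER5 alone was, at 1.1, with a list median of 0.17. For the 13 genes of the mitochondrial genome the median was 0.07. In the TGF-beta and mesenchymal list of 26 genes (median -0.07), LTBP1 was higher and ITGB6 (-1.26), an integrin chain that activates TGF-beta, was lower. LTBP1, which anchors latent TGF-beta in the matrix, had 865 CPM in the combination and 161 in exercise, and 263 in radiation and 304 in control, a ratio of 5.37 (5.22 to 5.53). The long noncoding RNA gene LINC00486 had 809 CPM in the combination and 111 in exercise, and 211 in radiation and 259 in control, a ratio of 7.26 (7.02 to 7.51). In both genes the combination stood above the other 3 libraries and exercise stood below them. Both lie on chromosome 2, LINC00486 starting at position 32825441 and LTBP1 at position 32946953 of GRCh38.p14. Their read counts moved in step. LTBP1 had 28315 reads in the combination and 5558 in exercise, and 9161 in radiation and 10847 in control. LINC00486 had 26481 in the combination and 3850 in exercise, and 7326 in radiation and 9235 in control. The excess of LTBP1 reads was of similar size in each library. Whether the ratio of LTBP1 is separate from that of LINC00486 was not tested.

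Among all genes that averaged 500 reads or more, the 10 highest outside the groups above included REG4, several uncharacterised RNAs and MYHAS, which is given with the muscle genes. REG4, a secreted lectin of the gut epithelium, had 659 CPM in the combination and 67.2 in exercise, and 581 in radiation and 79.9 in control, a ratio of 9.803 (9.39 to 10.2). LOC112267916 had 114 CPM in the combination and 6.22 in exercise, and 125 in radiation and 7.59 in control, a ratio of 18.4 (16.03 to 21.2), and LOC102723769 and LOC105379854, both long noncoding RNA genes, had log2 ratios of 3.43 and 3.22. All of these were high in both irradiated libraries. At the same minimum the lowest ratios were those of KRT17 and KRT6A, keratins of basal and wounded epithelium. KRT17 had 163 CPM in the combination and 884 in exercise, and 185 in radiation and 441 in control, a ratio of 0.184 (0.179 to 0.189). KRT6A had 18.2 CPM in the combination and 88.5 in exercise, and 22.9 in radiation and 43.9 in control, a ratio of 0.206 (0.188 to 0.225). The basal keratins KRT14 and KRT5, listed as markers of host keratinocytes, had 88 and 18 reads in the combination and 397 and 48 in exercise, while KRT1 and LORICRIN, markers of differentiated skin, had none. Of the other markers of differentiation in that list, KRT10 had 1135 reads in the combination and 1002 in exercise, and 1153 in radiation and 1110 in control (log2 ratio 0.26), and FLG had 114 reads in the combination and 171 in exercise, and 237 in radiation and 112 in control (-0.51). Below the minimum of 500 reads, TINAGL1, a matrix protein gene, had 3.54 CPM in the combination and 24.6 in exercise, and 5.003 in radiation and 17.2 in control (log2 ratio -2.79). The ligand gene WNT10A, also below it at 20 reads in the combination and 128 in exercise, and 39 in radiation and 52 in control, had a log2 ratio of -2.57. Above it, CX3CL1, the chemokine fractalkine, had -1.79.

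Muscle genes took several of the highest places. In the skeletal muscle list, 9 of 15 compared genes stood at 2-fold or more above exercise and none below it by that factor, and the summed level of the list was 102 CPM in the combination, 52.9 in exercise, 97.9 in radiation and 53.9 in control. MYH1, a fast myosin heavy chain, had 258 reads in the combination and 11 in exercise, and 278 in radiation and 0 in control. MYH4 had 417 reads in the combination and 25 in exercise, and 485 in radiation and 1 in control, and MYH2 had 284 reads in the combination and 14 in exercise, and 183 in radiation and 0 in control. For each of the 3, the irradiated libraries held at least 183 reads, exercise at most 25, and control at most 1. MYHAS, an antisense RNA gene whose span on chromosome 17 (10383132 to 10625540) covers all 3 of these myosin genes, had 1313 reads in the combination and 96 in exercise, and 1366 in radiation and 7 in control. LOC107985004, which overlaps MYH13 in the same cluster, had 66 reads in the combination and 0 in exercise, at least 23.2-fold higher against a floor of 3 reads in the exercise library. MYH7, the slow and cardiac myosin, had 96 reads in the combination and 2 in exercise, and 7 in radiation and 0 in control, so it was present in the combination almost alone. ACTA1, the skeletal actin, had 354 reads in the combination and 85 in exercise, and 228 in radiation and 95 in control. The giant structural genes TTN and NEB did not follow, with log2 ratios of -0.01 and 0.19, and of the 3 genes below 0 the lowest was TNNT1, the slow troponin T, with 61 reads in the combination and 112 in exercise, and 49 in radiation and 107 in control, a ratio of 0.575 (0.414 to 0.792). MB (myoglobin) had -0.08. Without the host marker genes, 555 genes were 2-fold higher and 586 lower.

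Fibroblast markers were lower in the combination, while the endothelial and macrophage lists were mixed. The fibroblast list had a median log2 ratio of -0.95, with 4 of 10 genes past the 2-fold threshold, all lower. COL1A1, the main collagen chain, had 81.2 CPM in the combination and 161 in exercise, and 99.3 in radiation and 164 in control, a log2 ratio of -0.99, and COL6A3 had 17 reads in the combination and 88 in exercise, and 25 in radiation and 47 in control. Summed over the list, fibroblast markers stood at 208 CPM in the combination, 379 in exercise, 253 in radiation and 372 in control. PECAM1, the one endothelial marker at 2-fold among the 3 compared, had 181 reads in the combination and 484 in exercise, and 334 in radiation and 655 in control. The other compared members, ESAM and ENG, had log2 ratios of 0.08 and 0.19, and the list median was 0.08, while VWF and TIE1, which define that cell type, had at most 22 reads. The macrophage markers C1QA, C1QB, FCGR3A and S100A8 had no read in any library, and LYZ (1.6) and CD68 (1.3), which epithelial tumor cells can express, were the 2 of 6 genes of that list at 2-fold, around a median of 0.37. The 2 members below 0 were ITGAM (-0.47) and CSF1R (-0.09). CD3D, CD3E, MS4A1 and GZMB had at most 1 read. Host reads enter these counts only where they match a human gene, so these levels are not a measure of the host share, and the part of host cells in the differences above was not tested.

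The same step, radiation added, can be read in the sedentary hosts from the radiation and control libraries, which share no library with the pair above. There 366 genes (1.89%) were at least 2-fold higher in radiation than in control and 174 (0.897%) were at least 2-fold lower, and 50.1% had a log2 ratio above 0. Running hosts thus gave 1159 genes at 2-fold against 540 in sedentary hosts. Of the 566 genes higher in running hosts, 198 were also higher in sedentary hosts, which is 34.98% of the running list and 54.1% of the sedentary list. Of the 593 lower genes 85 were shared, 14.3% of the running list and 48.9% of the sedentary list. A total of 8 genes were 2-fold higher in one pair and 2-fold lower in the other. Most of the rest shared direction, since 515 of the 566 higher genes (90.99%) had a radiation over control ratio above 1 and 498 of the 593 lower genes (83.98%) had one below 1. Across the 19393 genes the log2 ratios of the 2 pairs had a Pearson r of 0.59 and a Spearman rho of 0.47, and across the 15385 that averaged 100 reads or more they had 0.69 and 0.55. Genes are not independent replicates, and the pairs share the cell line, the counting and the filter over all 4 libraries.

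The p53 genes had nearly the same ratio in both settings. Their median log2 ratio was 0.69 in running hosts and 0.60 in sedentary hosts over the 57 genes, 33 of which had the larger ratio in running hosts. CDKN1A had a log2 ratio of 2.36 in running hosts and 2.43 in sedentary hosts, EDA2R had 3.34 and 3.19, and SPATA18 had 3.54 and 3.55. E2F7, the one gene that was 2-fold lower in running hosts, had -1.03 and 0.15. These are values of single libraries side by side, and the differences between them were not tested.

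**Figure D4:**
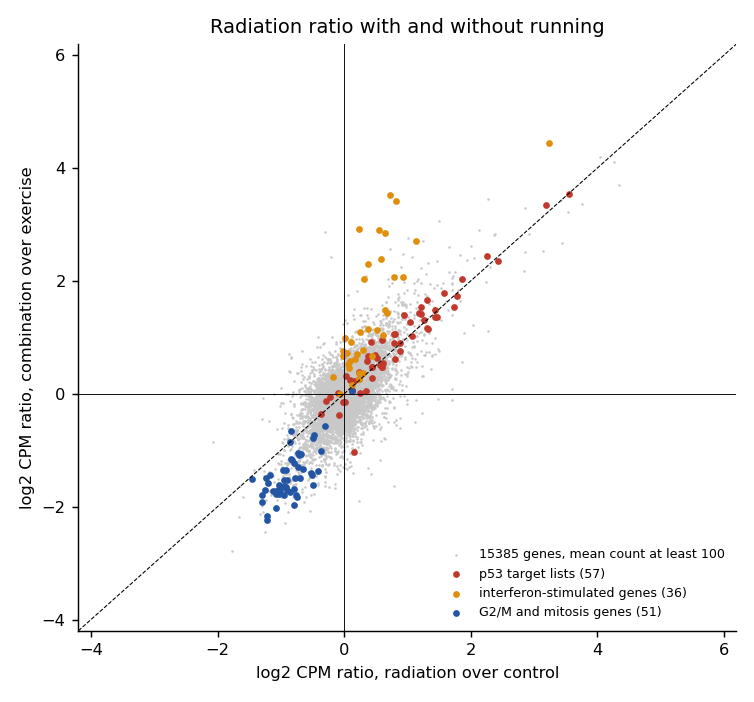
Log2 CPM ratio of the combination over exercise (y) against that of radiation over control (x), 1 point per gene that averaged 100 reads or more (4 of the 15385 lie outside the axes), with a dashed line of equal ratios. The p53 genes follow the dashed line, most interferon-stimulated genes lie above it, and most G2/M genes lie below it.

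The cell cycle genes had lower ratios in running hosts. For the G2/M list the median log2 ratio was -1.52 in running hosts and -0.86 in sedentary hosts, with 47 and 18 genes at least 2-fold lower, and 51 of 53 genes had the lower ratio in running hosts. The list level, taken as the median over genes of log2 CPM relative to each gene's mean over the 4 libraries, was -0.58 in the combination, 0.92 in exercise, -0.58 in radiation and 0.29 in control. The combination and radiation levels thus lay together, and the exercise library, the highest of the 4 in 52 of 53 genes, lay above control. For the G1/S list the medians were -0.71 and -0.43, with 13 and 1 genes 2-fold lower, and for homologous recombination they were -0.89 and -0.45.

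The interferon-stimulated genes showed the mirror image. Their median log2 ratio was 1.12 in running hosts and 0.3 in sedentary hosts, with 24 and 4 genes at least 2-fold higher and 42 of 43 genes larger in running hosts. The list level was 0.41 in the combination, -0.73 in exercise, 0.38 in radiation and -0.01 in control, so the combination and radiation levels were again close and exercise lay furthest from control. IFI6, IFITM1 and XAF1 were among the 5 genes averaging 100 reads or more whose ratio most exceeded that of sedentary hosts, with log2 ratios of 3.52, 2.91 and 3.42 in running hosts and 0.72, 0.24 and 0.81 in sedentary hosts. The rest of the 5 were LTBP1 and LINC00486, whose read counts moved in step across the libraries. For the MHC class I list the medians were 0.59 and 0.29, and all 19 genes had the larger ratio in running hosts. A difference that rests on the level of 1 exercise library cannot be told apart from that tumor's own state.

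**Figure D5:**
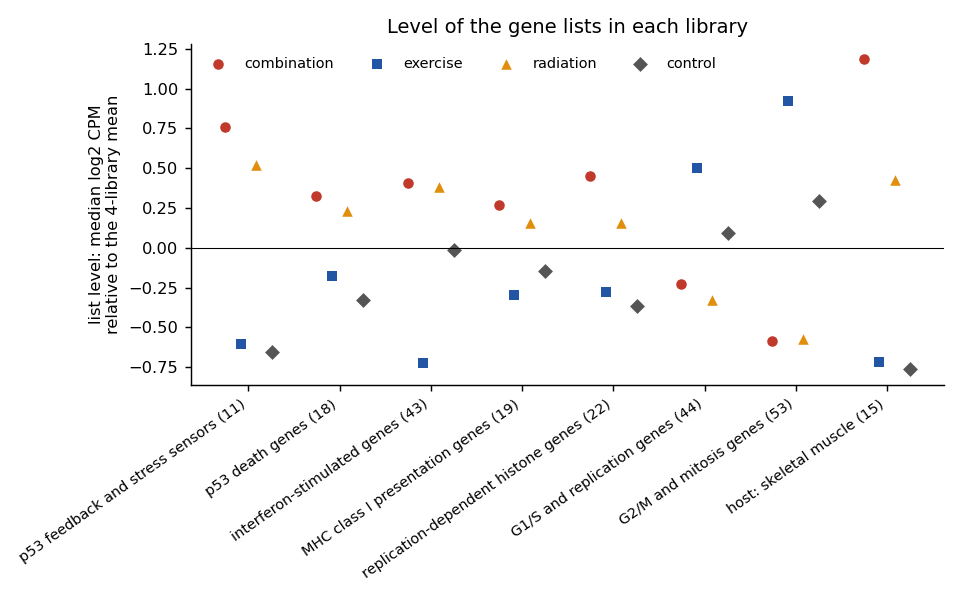
Level of 8 gene lists in each library (y: median over genes of log2 CPM relative to the gene's 4-library mean), with the number of genes in brackets and 1 point per library in the order combination, exercise, radiation and control. For the G2/M and interferon lists the irradiated libraries lie together while exercise lies beyond control, and for the p53 feedback list exercise and control lie together.

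Hypoxia-induced genes had medians of 0.26 in running hosts and 0.4 in sedentary hosts, and CA9 had log2 ratios of 1.36 and 0.85. For HIF1A the values were 0.12 and 0.5. Among histone genes the medians were 0.73 and 0.52, and among fibroblast markers -0.95 and -0.64. In the muscle list the exercise library held more myosin reads than control, 25 against 1 for MYH4, so the fold of running hosts was the smaller one for that gene while its read count in the combination (417) and in radiation (485) was alike.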

How the data were processed

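Per the labels and the study's methods, polyA-selected stranded libraries were read as pairs of 100 nt and the trimmed reads were aligned to GRCh38 with Bowtie2 2.3.4.1, an aligner that leaves reads over exon junctions unsplit. The authors deposited read counts per gene from featureCounts 1.6.0, not normalized, for 38137 genes. Beside them, FPKM values deposited by the authors (counts per gene length and library size) were used here only as an alternative. The paper names an Ensembl annotation, while the gene names follow NCBI.

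Libraries were mapped to groups by their labels. Counts were joined on gene name and scaled by TMM (edgeR 4.0.16 in R 4.3.3) to CPM. Log2 ratios used a prior of 0.5 counts, for genes averaging 20 counts or more over the 4 libraries, with a threshold of 2-fold and no test. Fold intervals are exact Clopper-Pearson intervals at 95%, and the floor for a count of 0 is 3 counts. The calling step was run on simulated counts with counting error only and no variation between tumors. There 98% of genes with a true 2.5-fold change and 0.146% of unchanged genes were at 2-fold. This does not measure how often tumors of one group would differ by 2-fold. Lists (35 lists, 738 genes, of which 641 were compared) were summarised by counts and medians. They and the libraries compared were chosen with earlier results of these data known. No compared erythroid marker remained, since none averaged 20 counts. The 2 symbols RIGI and LOR were matched as DDX58 and LORICRIN.

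Named genes are part of those given by this rule: the 10 highest and 10 lowest ratios among all genes and among genes averaging 500 counts, list members at 2-fold, for each list its 2 highest and 2 lowest members, the 5 genes per side whose 2 radiation ratios differ most, and genes the study names. Unexpressed markers and genes named for a count of 5 or fewer were chosen after their values were seen. Promoters, gene positions and biotypes are from RefSeq on GRCh38.p14; 18355 of the 19393 genes matched it and 14072 have a promoter there. Alternatives were median-of-ratios scaling (DESeq2 1.42.0) and total-count scaling, priors of 2 and 0.1 counts, no minimum and a minimum mean of 100 counts, FPKM with 0.1 added, list means, and thresholds of 4-fold and 1.5-fold. A minimum over the 2 libraries alone and the removal of host marker genes were chosen after seeing the data. Intervals came from scipy 1.17.1, tables from pandas 2.3.3 on numpy 2.4.6 and plots from matplotlib 3.10.9, under python 3.11.15.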

Additional observations from a re-analysis of the deposited data

Results flagged for a closer look

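Of the named genes at 2-fold, 4 had a ratio on the other side of 1 in sedentary hosts, with both counting intervals clear of 1. LTBP1, a latent TGF-beta binding protein, had a log2 ratio of 2.426 for the combination over exercise and -0.21 for radiation over control, from 865 CPM in the combination and 161 in exercise, and 263 in radiation and 304 in control. LINC00486, a long noncoding RNA gene on the same chromosome, had 2.859 and -0.3. Its read counts moved in step with those of LTBP1, so these are not shown to be separate results. IGFL4, an IGF-like family gene, had -1.895 and 0.23, from 15.9 CPM in the combination and 59.1 in exercise, and 29.6 in radiation and 25.2 in control. IGFN1, a gene best known from skeletal muscle, had -1.63 and 0.78, from 22.7 CPM in the combination and 70.2 in exercise, and 25.05 in radiation and 14.6 in control. For LTBP1 and LINC00486 the combination was the highest and exercise the lowest of the 4 libraries, and for IGFL4 and IGFN1 exercise was the highest. The difference between the 2 radiation ratios was not tested, since each group has 1 library.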

How the results depend on the processing

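The counts of 566 higher and 593 lower genes moved with the minimum count, the threshold and the unit. They were 3227 and 3459 with no minimum, 305 and 292 with a minimum mean of 100, 228 and 194 from FPKM, 108 and 30 at 4-fold and 1485 and 1616 at 1.5-fold. Other scalings and priors gave 532 to 577 higher and 559 to 654 lower genes, the minimum over the 2 libraries alone gave 551 and 582, and the median log2 ratio of all genes stayed within 0.1 of 0. Genes at 2-fold in both running and sedentary hosts numbered 120 higher and 47 lower with a minimum mean of 100, and 174 and 119 with total-count scaling. List means in place of medians were 1.13 for p53 feedback, 0.77 for p53 death, 0.74 for p53 repair and metabolism, 1.5 for interferon-stimulated, 0.72 for MHC class I and 0.35 for hypoxia genes, on the log2 scale. From FPKM the medians were 1.06 for p53 feedback, -1.13 for G2/M and 0.82 for interferon-stimulated genes. With no minimum count the adipocyte list, with few reads, had a median of -0.12 instead of 0.45. The cause of these shifts was not tested, beyond the genes added or dropped. All 196 named genes at 2-fold kept their direction under every scaling, prior and FPKM, and 130 stayed at 2-fold with FPKM, where the 0.1 added shrinks low values. No paired analysis was possible because each group has 1 library, and for the same reason no library could be left out. Depth limits genes under 20 mean counts and the interferon genes themselves.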

Other observations

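Some genes with extreme ratios belong to none of the lists. Among genes that averaged 500 reads or more, PRR11, a proline-rich protein gene expressed in cycling cells, had 8.27 CPM in the combination and 29.6 in exercise, and 10.98 in radiation and 19.2 in control, a log2 ratio of -1.84, the same direction as the mitosis genes. CD37, a tetraspanin gene known from leukocytes, had 9.65 CPM in the combination and 32.2 in exercise, and 16.02 in radiation and 25.5 in control, a log2 ratio of -1.74. Of the 10 lowest genes of the comparison, most rest on few reads. CD177 had 6 reads in the combination and 37 in exercise, and 21 in radiation and 32 in control, GPR173 had 8 reads in the combination and 52 in exercise, and 24 in radiation and 31 in control and LINC01842 had 5 reads in the combination and 40 in exercise, and 15 in radiation and 20 in control. The noncoding gene LOC728715 had 25 reads in the combination and 156 in exercise, and 45 in radiation and 133 in control. At the other end MYH13, an eye muscle myosin gene in the chromosome 17 cluster, had 176 reads in the combination and 11 in exercise, and 129 in radiation and 1 in control.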
